A study of Mus musculus with 5 samples.

Results

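Chemokines, interleukins and their receptors were followed in mouse liver RNA on 5 oligonucleotide arrays, 1 array for each of 5 groups of mice. Members were taken by name: every probe set, the group of short probes that reports on a transcript, with a single annotated gene symbol starting with Ccl, Cxcl, Ccr, Cxcr or Il followed by a digit. This gave 152 probe sets for 111 genes, out of 12393 genes with a single symbol on the array. Each gene is represented by its probe set with the highest mean log2 signal, and 31 of the 111 genes have more than 1. The members are 18 CC ligands, 10 CC receptors, 12 CXC ligands, 5 CXC receptors, 31 interleukins, 31 interleukin receptors, and 4 inhibitors or other products. A further 6 probe sets that list several symbols, at least 1 of them of this kind, were left out.

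The mice were labelled C57B/L, entered at 8 weeks of age, and were kept for 2 weeks before the feeding began. Those on standard chow for 1 week and for 10 weeks form the 2 control groups. An atherogenic diet, a feed that raises blood cholesterol and promotes artery disease, was given for 1 week to the third group and for 10 weeks to the fourth. The fifth received this diet for 10 weeks, with atorvastatin, an inhibitor of cholesterol synthesis, during the final 3 weeks. Livers of a group were pooled before RNA extraction, and how many went into a pool is not stated in the labels. The source name of the 1-week diet sample reads chow, while its title, description and protocols name the diet, by which it was grouped. With 1 array per group there is no replicate error and no test was possible, so every value below describes these pools only.

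Chemokines are small secreted proteins that attract leukocytes through receptors coupled to G proteins. They are classed as CC or CXC by the spacing of their first cysteines. Interleukins are secreted signals between cells, many of them read by receptors that act through JAK kinases and STAT factors, while the IL-1 and IL-18 receptors act through MyD88 and NF-kB. In liver, Kupffer cells, which are the resident macrophages, and the sinusoidal endothelium are known sources of such signals. Hepatocytes respond to IL-6 and IL-1 by secreting acute phase proteins.

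As a check of the arrays, the 2% trimmed mean of the deposited signals lay close to 500.2 on each, and Spearman correlations between arrays ran from 0.911 to 0.946. Relative to the array of chow at 1 week, 9 spike-in controls averaged 5.76-fold on that of chow at 10 weeks and 1.05-fold to 1.87-fold on the other 3 (geometric means). The 3' to 5' ratio of beta-actin lay between 1.17 and 1.73, highest on the 10-week chow array. The 18S ribosomal RNA controls had a geometric mean of 13944 on the atorvastatin array against 437 to 2185 elsewhere. As liver markers, 9 of 9 hepatocyte genes with a probe set were above background on all 5 arrays. Of 14 Kupffer cell and macrophage markers 12 were, and of 12 T and NK cell markers 1 was, with Cd3d, Cd8b1, Cd4 and Cd2 below it on every array. Of all genes 55.9% were above background on all 5 arrays. In whole liver, fewer cells of a type and less RNA per cell cannot be told apart.

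Most of these signalling genes gave little signal in liver. Background was set as a floor at a signal of 138.9, the 40th percentile of all signals. Above it on at least 1 array were 74 of the 111 members (66.7%), against 79.2% of all genes, and on all 5 arrays 35 (31.5%), against 55.9%. The other 37 never passed the floor. No detection calls were used here, so a signal above the floor does not by itself show that the transcript was present. By array, 51 members passed the floor on chow at 1 week, 46 on the diet at 1 week, 51 on chow at 10 weeks, 58 on the diet at 10 weeks and 58 with atorvastatin. Over all genes the shares ran from 64.8% on the 1-week diet array to 69.4% on the atorvastatin array. Only 4 members, Ccl9, Cxcl12, Il1rap and Il6st, had every signal above 4 times the floor, while 72 never exceeded 2 times the floor.

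**Figure D1:**
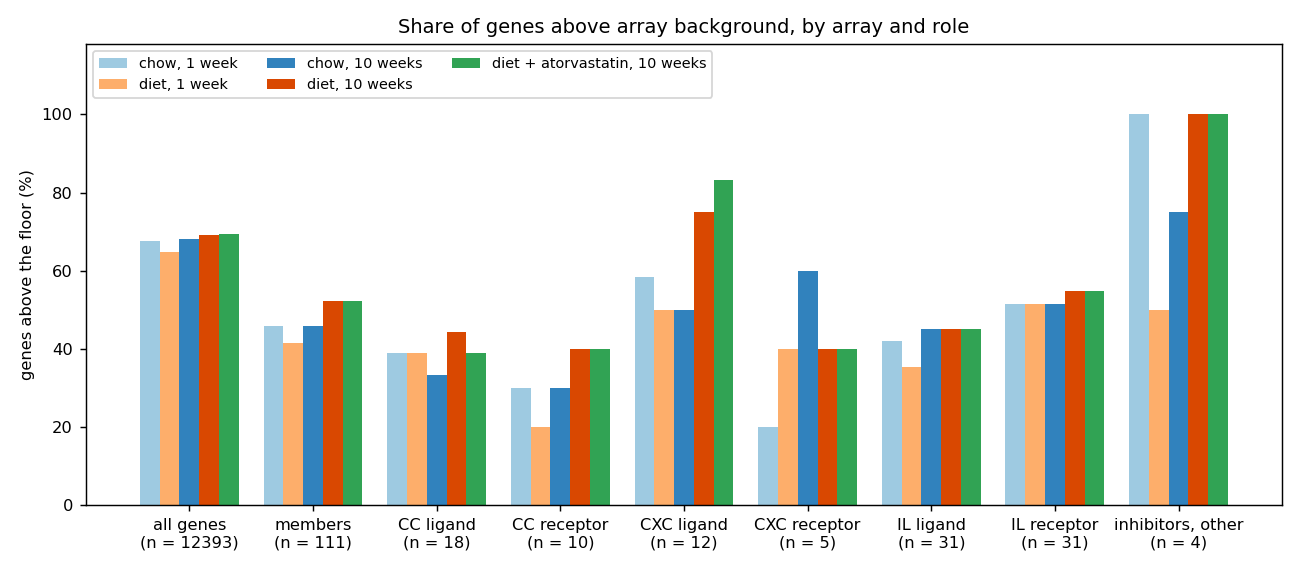
Share of genes above the floor (percent, vertical axis) on each of the 5 arrays, for all 12393 genes, for the 111 members and for the members by role; each bar is 1 array. The members lie between 41.4% and 52.3%, below all genes on every array, and the CXC ligands run from 50% to 83.3%.

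By role, 11 of 12 CXC ligands passed the floor on at least 1 array. The CC ligands did so for 9 of 18 genes and the CC receptors for 5 of 10. Of the CXC receptors 3 of 5 passed, of the interleukins 19 of 31, of the interleukin receptors 23 of 31, and of the inhibitors and others 4 of 4. The groups are small, and the differences between them were not tested.

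Promoter sequences are shown for 4 members that stand for 3 patterns of signal: Ccl9 and Cxcl12, above the floor on every array, Cxcl1, above it with atorvastatin only, and Il6, never above it. Each is the 250 bases before the annotated start, 5′ to 3′ on the gene's strand, from RefSeq on build GRCm38.p6, with motif matches in capitals.
Ccl9, chr11:83578637-83578886, minus strand: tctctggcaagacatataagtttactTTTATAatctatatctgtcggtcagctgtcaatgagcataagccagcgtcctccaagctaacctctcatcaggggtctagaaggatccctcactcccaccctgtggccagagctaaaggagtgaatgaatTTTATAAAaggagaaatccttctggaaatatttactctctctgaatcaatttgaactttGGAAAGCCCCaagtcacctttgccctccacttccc
Cxcl12, chr6:117168285-117168534, plus strand: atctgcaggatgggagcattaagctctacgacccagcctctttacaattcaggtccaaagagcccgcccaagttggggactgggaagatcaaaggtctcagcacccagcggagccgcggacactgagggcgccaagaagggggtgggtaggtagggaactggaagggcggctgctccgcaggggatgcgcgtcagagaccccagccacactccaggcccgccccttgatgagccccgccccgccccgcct
Cxcl1, chr5:90890995-90891244, plus strand: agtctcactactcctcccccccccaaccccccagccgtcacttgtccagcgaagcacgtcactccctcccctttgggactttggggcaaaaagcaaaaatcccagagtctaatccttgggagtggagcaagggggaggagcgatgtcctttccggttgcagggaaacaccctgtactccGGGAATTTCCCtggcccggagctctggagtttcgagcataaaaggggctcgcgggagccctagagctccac
Il6, chr5:30012864-30013113, plus strand: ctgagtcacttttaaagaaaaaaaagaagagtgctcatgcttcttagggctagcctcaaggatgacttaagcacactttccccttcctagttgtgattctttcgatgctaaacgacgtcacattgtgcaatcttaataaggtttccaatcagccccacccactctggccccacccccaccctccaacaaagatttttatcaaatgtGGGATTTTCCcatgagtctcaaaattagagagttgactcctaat

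Both strands were searched for 4 motifs: TATAAA, TTCNNNGAA of the STAT type, GAAA repeated after any 2 bases, of the interferon-response type, and the NF-kB consensus, which is given by name. Cxcl1 held an NF-kB match on each strand, overlapping, between 71 and 61 bases before the start, and Il6 held 1 between 44 and 35 bases before it. Ccl9 held TATAAA at 3 places, 2 of them overlapping, and an NF-kB match between 35 and 26 bases before the start. Cxcl12 held none of the 4 motifs in this window. Promoters of 83 members matched in the table. Of their 100 promoters 13 held the NF-kB consensus (13%), against 7.25% of all 32851 promoters, and 19 held TATAAA (19%), against 12.4%. TTCNNNGAA was in 11% against 7.02%, and the spaced GAAA repeat in 3% against 2.98%. Among members above the floor on all arrays 2 of 34 promoters held the NF-kB consensus, and among those never above it 4 of 31. A match is a string of letters and not a shown site.

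Among the CC ligands, Ccl9, a chemokine of myeloid cells, had the highest signals, 2265 and 1907 at 1 week on chow and diet, 1979 and 2509 at 10 weeks, and 2118 with atorvastatin. Its highest and lowest arrays differed by 1.32-fold. The second Ccl9 probe set varied more, with 670, 608, 744, 1164 and 1078 in the same order, both long-diet arrays being highest. Its log2 ratio for the diet at 10 weeks was 0.65. Ccl6, a related chemokine made by macrophages, had 516 and 485 at 1 week, 268 and 308 at 10 weeks, and 616 with atorvastatin. The pair of 10-week arrays without atorvastatin was thus the low one for Ccl6, on chow and on the diet alike. Its other probe set had 162, 272, 180, 195 and 291 in the same order, with the 1-week chow array low.

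Ccl4 and Ccl5, which attract T cells and monocytes, were above the floor on all 5 arrays. Ccl4 lay between 283 on the diet at 1 week and 461 on chow at 10 weeks. Ccl5 lay between 149 on the diet at 10 weeks and 284 on chow at 10 weeks, a difference of 1.91-fold. Ccl8 ran from 364 to 503 and Ccl27a from 168 to 282. Ccl28, an epithelial chemokine, had 171 and 159 at 1 week, 109 and 260 at 10 weeks, and 36.2 with atorvastatin. Its second probe set never passed the floor and was highest with atorvastatin (80.9). Ccl17 passed the floor on the 10-week diet array only (208), and Ccl1 with atorvastatin only (156). Ccl2, the main monocyte attractant, stayed between 29 and 91. Ccl3, Ccl7, Ccl11, Ccl12, Ccl20, Ccl22, Ccl24 and Ccl25 also stayed below the floor on every array, between 6.2 for Ccl12 and 125 for Ccl7.

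Of the CC receptors, Ccr1l1 and Ccr6 were above the floor on all 5 arrays. Ccr6, the receptor of Ccl20, had 206 and 198 at 1 week, 267 and 164 at 10 weeks, and 350 with atorvastatin. Ccr1l1, a gene similar to Ccr1, had 219 on the diet at 1 week and 327 to 410 on the other 4 arrays. Ccr2, the receptor of Ccl2 on inflammatory monocytes, passed the floor on the 10-week diet array only, with 208 against 15.1 to 101 elsewhere. Its other probe sets stayed at or below 115 and did not share this peak, with 17.5 and 29.9 on the 10-week diet array. Ccr10 had 261 on chow at 1 week, 213 on the diet at 10 weeks and 209 with atorvastatin, against 63.8 and 64.2 on the others. Ccr4 passed on chow at 10 weeks (187) and with atorvastatin (217). Ccr1, Ccr3, Ccr7, Ccr8 and Ccr9 never passed.

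Cxcl12, which retains leukocytes and progenitors through Cxcr4, had the highest signals among the CXC ligands. They were 3886 and 3172 at 1 week on chow and diet, 3940 and 3268 at 10 weeks, and 4549 with atorvastatin. Both diet arrays without the drug were thus lower than the chow array of the same week, by 1.23-fold and 1.21-fold, well inside 2-fold. The second Cxcl12 probe set had 2860, 2537, 3352, 3265 and 3938. Its diet arrays were lower by 0.17 (1 week) and 0.04 (10 weeks) on the log2 scale, so the 10-week difference was smaller there. Cxcr4, its receptor, stayed below the floor throughout, between 35.2 and 93.6.

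Cxcl9, Cxcl10 and Cxcl11 are ligands of Cxcr3 induced by interferon gamma. Cxcl9 had 305 and 207 at 1 week, 301 and 564 at 10 weeks, and 361 with atorvastatin, so the 10-week diet array stood highest. Cxcl10 had 140 and 79.8 at 1 week, 213 and 160 at 10 weeks, and 224 with atorvastatin, without that peak. Cxcl11 had 235 and 156 at 1 week, 101 and 162 at 10 weeks, and 214 with atorvastatin. These ligands therefore did not share a common order over the arrays. Cxcr3 had 112 on chow at 1 week and 216 to 310 on the other arrays.

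Cxcl16, a membrane-bound ligand of Cxcr6 made by macrophages and endothelium, had 469 and 368 at 1 week, 475 and 799 at 10 weeks, and 548 with atorvastatin. The 10-week diet array was again the highest. Its second probe set did not show this, with 109, 135, 124, 71.2 and 211. Cxcr6 was nearly flat, between 177 and 228. Cxcl13, the B cell attractant, ran from 460 on the diet at 1 week to 759 with atorvastatin. Its second probe set ran otherwise, with 395 and 178 at 1 week, 143 and 90.7 at 10 weeks, and 276 with atorvastatin, a log2 ratio of -1.15 for the diet at 1 week. Cxcl17 ran from 270 on chow at 1 week to 500 with atorvastatin.

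The neutrophil attractants Cxcl1, Cxcl2 and Cxcl5 passed the floor on 1 array at most. Cxcl1 had 85.1 and 50.9 at 1 week, 44.1 and 102 at 10 weeks, and 252 with atorvastatin, its only array above the floor. Against the floor it was at least 1.81-fold higher there than on the diet alone. Cxcl2 lay between 86.4 and 140, just past the floor on the diet at 10 weeks, and Cxcl5 between 3.1 and 90.9. Their receptor Cxcr2 passed the floor only on chow at 10 weeks, with 146. Cxcl15 passed with atorvastatin only (154). Cxcl14 passed on the diet at 10 weeks (185) and with atorvastatin (159), and Cxcr5 never passed.

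In the IL-1 family, Il1b, the main secreted IL-1, had 493 and 388 at 1 week, 518 and 567 at 10 weeks, and 765 with atorvastatin. It was highest with atorvastatin, by 1.35-fold over the diet alone. Il1a passed the floor with atorvastatin only (192). Il18, activated by the same protease as Il1b, had 478 and 449 at 1 week, 432 and 634 at 10 weeks, and 585 with atorvastatin, with both long-diet arrays highest. Il1f10 varied between 436 and 577, Il1f6 between 215 and 407, and Il1f9 between 214 and 302. Il33, an alarm signal released by damaged cells, stayed below the floor.

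Il1rap, the accessory chain shared by IL-1 and IL-33 receptors, had 2891 and 2929 at 1 week, 2799 and 2089 at 10 weeks, and 1727 with atorvastatin. The 2 long-diet arrays were the lowest, by up to 1.70-fold between extremes. The other 2 probe sets of Il1rap did not follow: at 10 weeks each gave a diet log2 ratio of 0.47 against -0.42 for this one. Il1r1, the signalling receptor of IL-1, had 162 and 291 at 1 week, 351 and 64.4 at 10 weeks, and 395 with atorvastatin. Il1r2, the decoy receptor, had 262, 208, 215, 20.2 and 272 in the same order. Both receptors were thus below the floor on the 10-week diet array alone. They are neighbours in the gene order of the RefSeq table, in a run with Il1rl2, Il1rl1, Il18r1 and Il18rap. The run did not share this order: Il18rap passed the floor on the 10-week diet array only (217). Il1rl2 and Il18r1 never passed, and Il1rl1 is not among the members on the array.

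Among the inhibitors, Il1rn, the secreted IL-1 receptor antagonist, had 308 and 543 at 1 week, 632 and 676 at 10 weeks, and 625 with atorvastatin. The 1-week chow array stood apart as low. Its other probe sets ran from 218 to 446 and from 193 to 319, and on them the 1-week chow array was not the lowest. Il18bp, which binds IL-18, had 176 and 42.2 at 1 week, 38.2 and 192 at 10 weeks, and 359 with atorvastatin. Il1f5, an antagonist of the IL-36 receptor, lay between 139 and 212, highest on chow at 10 weeks. Its second probe set was lowest there, with 127 and 161 at 1 week, 22.1 and 170 at 10 weeks, and 194 with atorvastatin.

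The IL-6 pathway was represented by its receptors and not by its ligand. Il6 itself had signals of 65.2 and 44.4 at 1 week, 71.8 and 78.9 at 10 weeks, and 73 with atorvastatin, below the floor on every array. Il6st, the signalling chain gp130, had 1126 and 1106 at 1 week, 1102 and 1343 at 10 weeks, and 1230 with atorvastatin. It was the steadiest member above the floor on all arrays, with 1.22-fold between extremes. Its other probe sets varied more and had their lowest value on the diet at 1 week (108 and 167). Il6ra, the ligand-binding chain, lay between 482 on the diet at 1 week and 786 on the diet at 10 weeks, while its other probe set had its lowest value, 195, on the latter. The acute phase gene Saa1, known as a target of IL-6 and IL-1, had 19553 with atorvastatin and 754 to 1095 elsewhere, while Il6 was below the floor and Il1b inside 2-fold. The part of these cytokines in that signal was not tested.

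For the IL-4 and IL-13 branch, Il4 passed the floor on chow at 1 week only (163) and Il13 never. Il4ra, their shared receptor chain, lay between 157 on chow at 10 weeks and 264 with atorvastatin. A further Il4ra probe set ran the other way, with 169 on chow at 10 weeks as its highest value and 78.7 with atorvastatin as its lowest. Il13ra1, the partner chain of Il4ra, had 388 and 279 at 1 week, 478 and 682 at 10 weeks, and 669 with atorvastatin, so both long-diet arrays were the highest. It has 5 probe sets, and their log2 ratios for the diet at 10 weeks ran from -0.22 to 0.85. Il13ra2, the decoy chain, never passed the floor. Il15ra lay between 323 and 532, whereas Il15 passed the floor only on the diet at 10 weeks (150). The second Il15ra probe set ran otherwise, with 154 and 304 at 1 week, 195 and 300 at 10 weeks, and 258 with atorvastatin. Il2rb, used by IL-2 and IL-15 on lymphocytes, had 205 and 182 at 1 week, 162 and 275 at 10 weeks, and 357 with atorvastatin. Il7 passed with atorvastatin only (165), and Il7r on chow and diet at 10 weeks (177 and 167). Il16 passed on the diet at 10 weeks (147) and with atorvastatin (151), while its second probe set was highest on chow at 1 week (277). Il2, Il3, Il5 and Il21 stayed at or below 80.4, and Il9 lay between 94.6 and 200.

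Receptors of the IL-17 family differed from each other. Il17ra, their common chain, lay between 197 and 267 and Il17re between 523 and 815. The second Il17ra probe set had 42 on chow at 1 week and 145 to 223 elsewhere. Il17rb had 400 and 337 at 1 week, 485 and 323 at 10 weeks, and 564 with atorvastatin. Il17rc had 159 and 355 at 1 week, 97.4 and 331 at 10 weeks, and 105 with atorvastatin. Both diet arrays without the drug were thus high for Il17rc, which has 1 probe set, and its neighbour Il17re did not share this order. Il17a ran from 179 with atorvastatin to 339 on chow at 1 week. Il17b, Il17d and Il25 never passed.

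Of the IL-10 and IL-12 families, Il10rb, shared by several receptors, lay between 285 and 437, and Il10ra never passed the floor. Il10 passed on the 3 arrays of 10 weeks, with 142, 169 and 215. Il12a, a subunit of IL-12, lay between 140 and 234. Il12b, its partner, had 175 and 177 at 1 week, 285 and 124 at 10 weeks, and 176 with atorvastatin. The 10-week chow array was the high one for Il12b. Il20 lay between 211 and 381, and Il24 passed on 3 arrays, reaching 286 on chow at 10 weeks. Il12rb2 lay between 109 and 306. Il34, a ligand of the macrophage receptor Csf1r, had 179 and 140 at 1 week, 277 and 290 at 10 weeks, and 87.5 with atorvastatin.

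**Figure D2:**
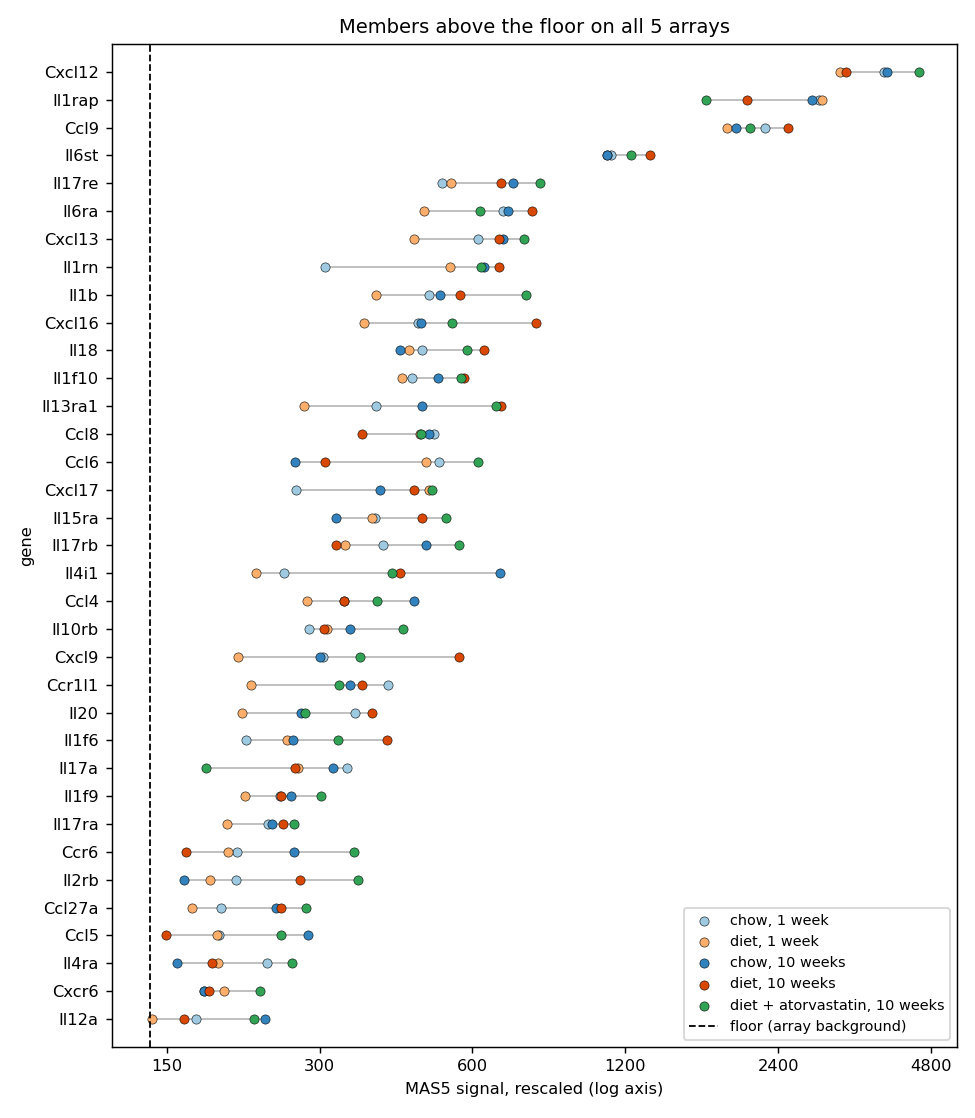
Signals of the 35 members above the floor on all 5 arrays (log axis; each point is 1 array, the grey line spans the lowest to the highest, the dashed line is the floor of 138.9). For 27 of the 35 the highest and lowest arrays lie within 2-fold, and the 1-week diet array is the lowest point for 17.

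Over these 35 members the highest signal was a median 1.68 times the lowest, against 1.64 times over the 6929 genes above the floor on all arrays. Within 2-fold were 77.1% of the members and 77.8% of all such genes. The lowest point fell on the 1-week diet array for 17 of the 35 (48.6%), against 25% of all such genes. The highest fell on the atorvastatin array for 16 (45.7%), against 19.5%. With quantile normalization and cyclic loess the first count was 17 of 36 in both, against 21.6% and 22.2% of all genes, and the second 18 and 17 of 36, against 20.2% and 20.6%. Averaging all probe sets of a gene gave 14 and 11 of 31, against 25.4% and 19.1%. At the 20th percentile floor they were 32 and 24 of 65, against 26.6% and 21.6%, and at the 60th 8 and 7 of 17, against 22.1% and 17.2%.

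After 10 weeks on the diet, few of these genes stood apart from chow. Il17rc was at least 2.38-fold higher on the diet, Il1r1 at least 2.53-fold lower and Il12b at least 2.05-fold lower, each a bound because 1 side was at the floor. In all 1 of 65 measured members was higher by 2-fold or more, where the share over 9232 genes was 3.59%, and 2 were lower, where it was 3.07%. Together these are 4.62% of the members against 6.65% of all genes, so the members' share is not above the background at this floor. With the floor at the 20th percentile it was above, 19 of 93 members (20.4%) against 14.5% of all genes, so the reading turns with the floor. Their median log2 ratio was 0.07, against 0.05 for all genes. Just inside 2-fold lay Cxcl9 (log2 0.91) and Ccl28 (at least 1.87-fold higher) on the one side and Ccl5 (-0.93) and Il24 (-0.92) on the other.

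The calls of this comparison depend on its chow array. Against the 1-week chow array Il17rc had a log2 ratio of 1.05, while Il1r1 had -0.22 and Il12b -0.33, both as bounds. The 10-week diet signals of Il1r1 and Il12b were below the floor (64.4 and 124), and those on chow at 1 week not far above it (162 and 175). A larger difference from that chow array could therefore not be seen with floored signals. With the mean of its probe sets Il12b had -0.10 against chow at 10 weeks. Its other probe set never passed the floor and ran the other way, with 77.8 on chow and 133 on the diet at 10 weeks. Of all genes 54.3% had positive ratios for the diet at 10 weeks against chow at 10 weeks. Of the Kupffer cell and macrophage markers 13 of 13 measured did, with a median log2 ratio of 0.73. Of the hepatocyte markers 0 of 9 did, with a median of -0.46. The summed signal of the macrophage markers was 17510 and 15255 at 1 week on chow and diet, 11821 and 20151 at 10 weeks, and 29620 with atorvastatin. Of the sinusoidal endothelial markers 8 of 9 had positive ratios, with a median of 0.46. Higher by 2-fold or more were 3 of the 9, where 3.59% of all genes were. Of the neutrophil markers 5 of 6 had positive ratios, with a median of 0.39. The part of these cells in the values of Cxcl9, Cxcl16 and Il18 was not tested.

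After 1 week on the diet, Il17rc was again the one member past 2-fold, 2.23-fold higher, with both signals above the floor. This is 1 of 53 measured members (1.89%), where 1.06% of 8798 genes were higher by as much and 2.3% differed either way. No member was lower by 2-fold on the probe set used, where 1.24% of genes were. Among probe sets not used, a further one of Il6st (-1.25, as a bound) and the second of Cxcl13 (-1.15) were. Ccr10, at least 1.88-fold lower, and Ccr1l1 (-0.90) came nearest, and Cxcr3, at least 1.92-fold higher, Cxcl17 (0.87) and Il1r1 (0.85) on the other side. Most members had small negative ratios: 39 of 53, with a median of -0.18 against -0.03 for all genes. Positive were 26.4% of the members and 46.1% of all genes. The median was -0.09 with quantile normalization, where 20 of 56 were positive, and -0.07 with cyclic loess, where 21 of 57 were. Of 14 macrophage markers 3 had positive ratios and the median was -0.21, and the sinusoidal endothelial markers had a median of -0.48. What part they had in the shift of the members was not tested.

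The 2 diet arrays without atorvastatin were also set against each other, a comparison chosen after the values were seen. Higher at 10 weeks by 2-fold or more were 4 of 62 members, Cxcl9 (log2 1.45), Cxcl16, Il13ra1 and Il34, where 4.78% of 9086 genes were, and Il1r1 was lower (-1.07), where 3.68% were. Either way this is 8.06% of the members against 8.45% of all genes. Against chow at 1 week, the 10-week diet array had 2 of 64 members higher by as much, Il17rc and Il1rn, and 0 lower, where 3.6% of 9177 genes were higher, 2.75% lower and 6.34% either way.

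Adding atorvastatin left 3 members at least 2-fold higher than on the diet alone and 2 lower. Il1r1 was at least 2.84-fold higher, Ccr6 2.14-fold and Ccl6 2.00-fold, while Il17rc was at least 2.38-fold and Il34 at least 2.09-fold lower. These are 5 of 69 measured members (7.25%), against 4.27% of 9293 genes, of which 2.15% were higher and 2.12% lower. The difference in share was not tested. Just inside 2-fold lay Il1r2 (at least 1.96-fold higher), Il18bp (log2 0.90) and, lower, Ccl28 (at least 1.87-fold). The median log2 ratio was 0.16 against -0.02 for all genes, and 40 of 69 members (58.0%) were positive, against 47.5% of all genes. It lay between 0.09 and 0.17 under the other scalings and floors and the mean of all probe sets.

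This comparison shares the 10-week diet array with the one against chow, so Il1r1 and Il17rc, opposite in them, are not independent. Against chow at 10 weeks, the atorvastatin array had Il1r1 at 395 and 351, and Il17rc below the floor on both. Of the macrophage markers 12 of 14 had positive ratios, with a median of 0.43, and of the neutrophil markers 0 of 6, with a median of -0.17. Marco, at least 8.14-fold higher, was the 1 macrophage marker past 2-fold, where 2.15% of all genes were higher by as much. Of the sinusoidal endothelial markers 4 of 9 had positive ratios, with a median of -0.07. Lower by 2-fold or more were 2 of the 9, where 2.12% of all genes were. Over all genes 47.5% of the ratios with atorvastatin against the diet were positive. For Ccl6, known as a macrophage product, the part of these cells was not tested. With the mean of its probe sets Ccl6 had a log2 ratio of 0.79. Ccr6 had 0.31 at a 60th percentile floor and 0.69 with a pseudocount. Il34 was just short of 2-fold with quantile normalization (-0.99) and cyclic loess (-0.98).

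**Figure D3:**
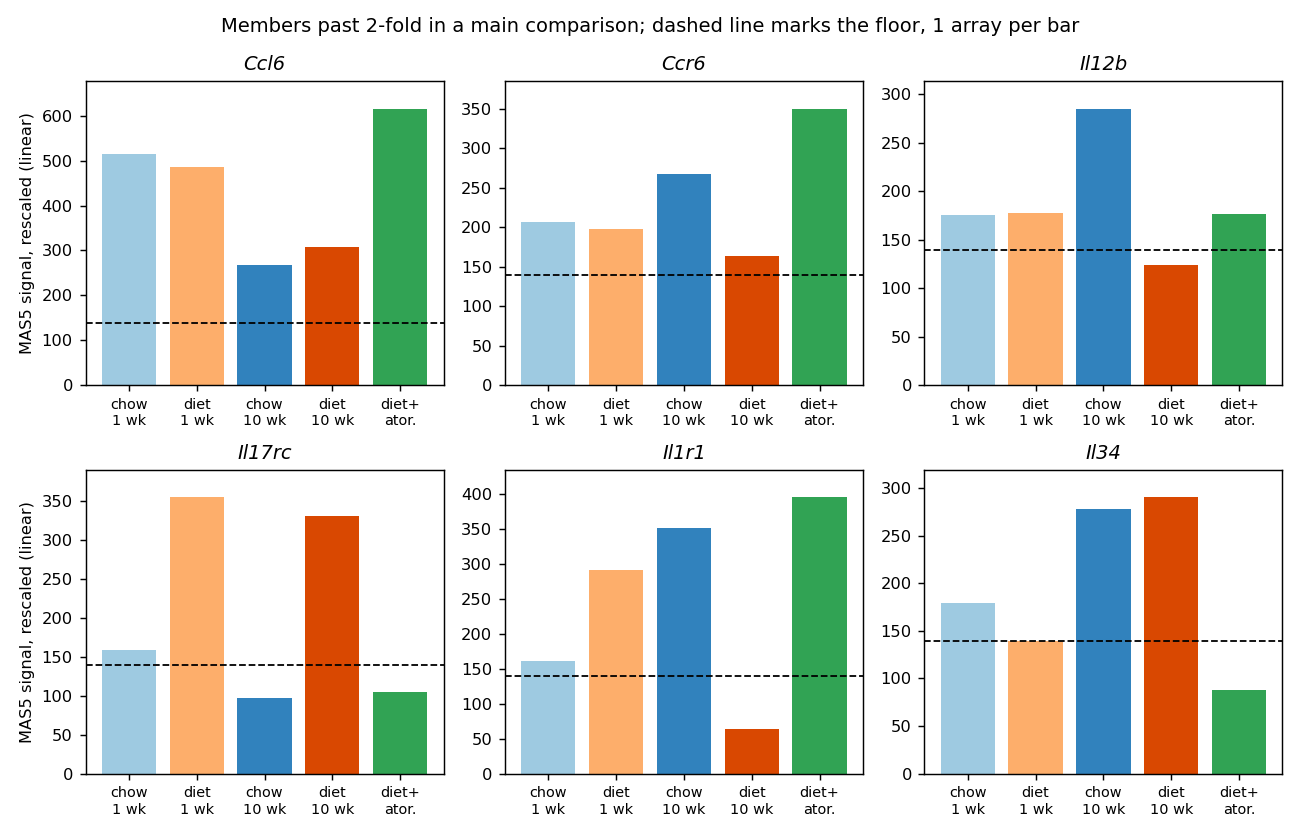
Signals of the 6 members past 2-fold in a main comparison (linear axis from 0; each bar is 1 array, dashed line at the floor of 138.9). Il17rc is high on both diet arrays without atorvastatin (355 and 331), and Il1r1 is below the floor on the 10-week diet array (64.4) only.

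Between the chow arrays, which share their feed but differ in time on it and in age, 4 of 59 measured members were higher at 10 weeks by 2-fold or more and 0 lower. They were Il4i1, an amino acid oxidase induced by IL-4 (log2 1.42), Il1r1 (1.12), Il1rn (1.04) and Il24 (at least 2.06-fold). Il4i1 and Il24 were chosen after their values were seen. These are 6.78% of the members, against 4.39% of 9087 genes, with 2.44% higher and 1.95% lower. The count of 4 between controls stands beside 3 for the diet at 10 weeks. Over all genes 95% of the ratios of this pair were within 1.94-fold. Of the 6 members past 2-fold in the main comparisons, Il1r1 was also past it here and Ccl6 was close, with -0.94. Over all genes 51.1% of the ratios of this pair were positive. Of the macrophage markers 2 of 14 were, with a median of -0.64. Lower by 2-fold or more were 3 of the 14, where 1.95% of all genes were. Of the hepatocyte markers 8 of 9 had positive ratios, with a median of 0.53. The part of these cells in the value of Ccl6 was not tested.

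**Figure D4:**
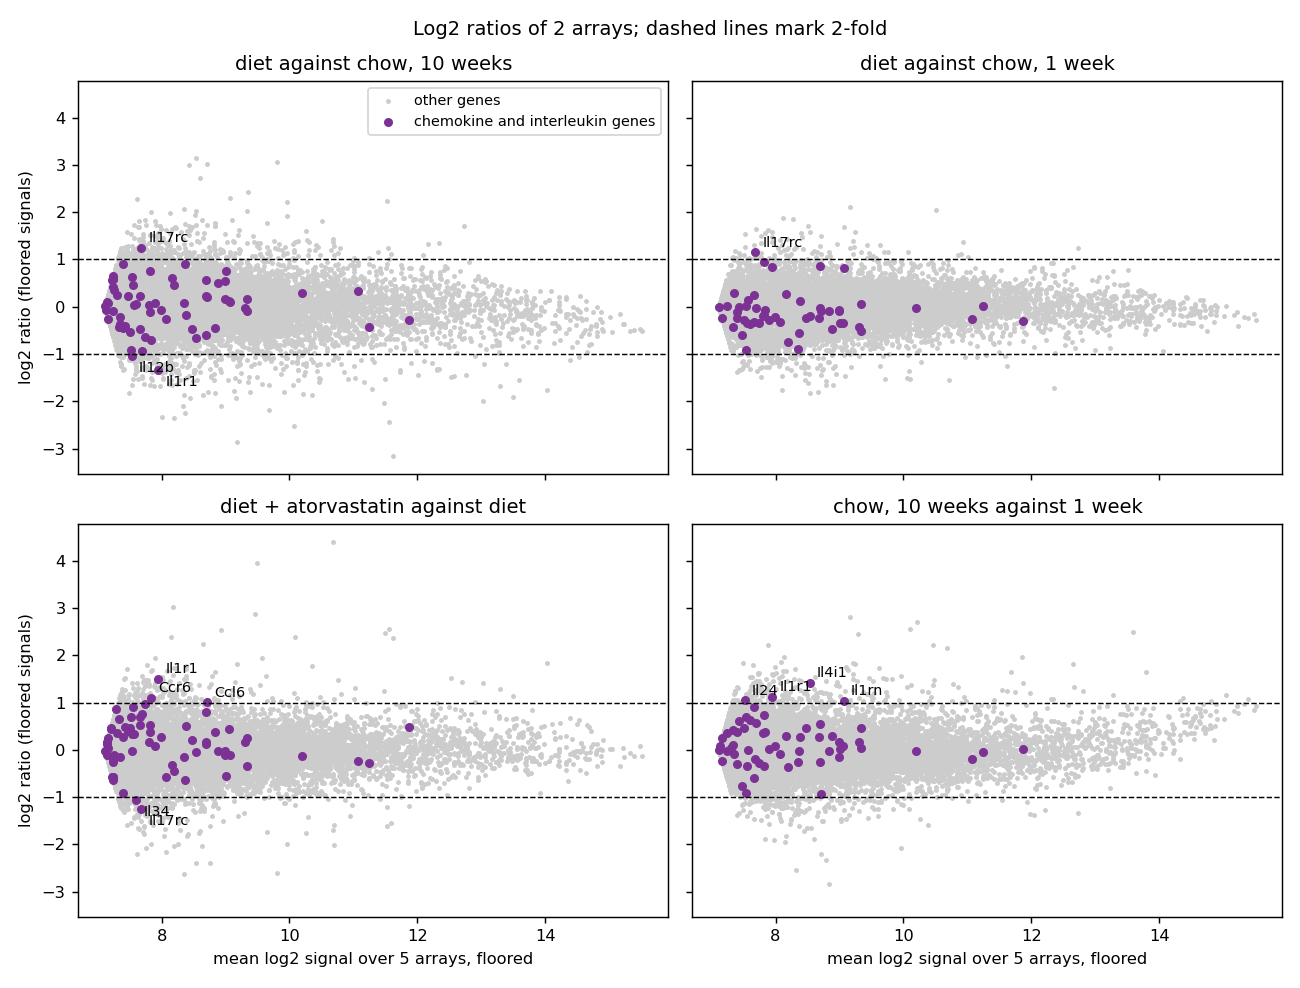
Log2 ratio of 2 arrays (vertical axis) against the mean log2 signal over the 5 arrays (horizontal axis), both with signals floored, for 3 main comparisons and the chow pair. Grey points are other genes, purple points the members, and dashed lines mark 2-fold. Members past 2-fold are named, such as Il17rc at 1.25 for the diet at 10 weeks and 1.15 at 1 week.

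Other genes of these pathways were read from a list of receptors, kinases, STAT factors and regulators outside the name rule. Of the 69 listed, 62 have a probe set, and 51 passed the floor on at least 1 array, where 79.2% of all genes did. For the diet at 10 weeks 1 of 46 was higher and 2 lower by 2-fold or more, where 3.59% and 3.07% of all genes were. Csf3r, the G-CSF receptor of neutrophils, was at least 2.53-fold higher, and Lifr, a partner of Il6st (-1.36), and Socs1, an inhibitor of JAK signalling (-1.35), were lower. Socs1 had 401 on chow at 10 weeks and 92.5 to 211 elsewhere, and Lifr 2718 against 947 to 1390, so both stood out on that chow array. At 1 week 0 of 45 passed 2-fold, where 2.3% of all genes did. With atorvastatin, Lif, an IL-6 family cytokine, was at least 2.24-fold higher and Tgfb1 at least 2.09-fold, and Csf3r was lower (-1.21). These are 3 of 51, where 4.27% of all genes were past 2-fold. Between the chow arrays 2 of 46 were higher, Socs1, at least 2.89-fold, and Csf1 (1.03), where 2.44% of all genes were.

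Many members lie next to each other in the genome: 52 of the 111 sit in 22 runs of neighbouring genes of this kind in the RefSeq gene table. Members of a run could differ in signal or share a level. In the run Ccl5, Ccl9, Ccl6, Ccl3 and Ccl4, 4 genes were above the floor on all arrays and Ccl3 on none. In the run Ccl2, Ccl7, Ccl11, Ccl12, Ccl8 and Ccl1, Ccl8 passed on all 5 and 4 of the 6 on none. In that of Il1f8, Il1f9, Il1f6, Il1f5, Il1f10 and Il1rn all 6 passed on at least 1 array and 4 on all. Probe sets of neighbouring genes differ in sequence and sensitivity, so these are counts above a floor and not a ranking of transcripts.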

How the data were processed

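The deposited values are linear intensity values, 1 for each probe set on each array, made with MAS5 per the submitters' processing notes. Its version and settings are not stated there. Biotin-labelled cRNA came from pooled liver RNA, per the labels' protocols.

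Signals were brought to the same 2% trimmed mean on every array, 64 control probe sets were left out, and signals were floored at the 40th percentile (138.9) before log2. A gene is measured in a comparison if above the floor on at least 1 of 2 arrays; where 1 of them is at the floor, its fold is given as a bound. Genes at or past 2-fold were counted. Gene identifiers of 111 of 111 members matched the RefSeq table (GRCm38.p6), with 0 symbols changed. The ratio step was tested on simulated data. Members, lists and tests were chosen with earlier results of these data known. Described were members past 2-fold, the 10 with the highest mean signal and 57 of 66 preset genes, and further members to complete counts. Some were given by range, or only as never above the floor. The alternatives tried were the deposited scaling, quantile normalization, cyclic loess (limma 3.58.1), the 20th or 60th percentile as floor, a pseudocount equal to the floor, other probe set rules, rules of 1.5-fold and 3-fold, and other chow references. Computations used Python 3.11.15, pandas 2.3.3 and R 4.3.3. The number of arrays limits the precision.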

Additional observations from a re-analysis of the deposited data

Results flagged for a closer look

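For 2 members the diet ratios at 10 weeks and at 1 week, which share no array, had opposite signs with at least 1 of them past 2-fold, a difference that was not tested. Il1r1 had a log2 ratio of -1.34 at 10 weeks, as a bound, and 0.85 at 1 week. Il12b had -1.04 at 10 weeks, also as a bound, and 0.018 at 1 week, which is close to no difference. Each group is 1 array.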

How the results depend on the processing

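The counts rest on where background is set. At a 20th percentile floor (48.5) the members past 2-fold were 19 of 93 measured for the diet at 10 weeks (20.4%, against 14.5% of all genes), 10 of 90 at 1 week (11.1% against 7.5%), 19 of 94 with atorvastatin (20.2% against 11.7%) and 18 of 94 between the chow arrays (19.1% against 11.6%). There the members' share was above that of all genes in all 4 comparisons, the chow pair included. Once it was raised to the 60th percentile (281.8) they were 0, 0, 1 and 2, and 38 members passed the floor instead of 74. A rule of 1.5-fold gave 16, 9, 16 and 13, and one of 3-fold gave 0 for each of the 4. With a pseudocount the counts were 0 at 1 week, 3 with atorvastatin and 1 between the chow arrays. Against the mean of both chow arrays 1 member was past 2-fold for the diet at 10 weeks and 1 for atorvastatin, the latter a change of reference from diet to chow. At 1 week quantile normalization and cyclic loess each gave 2. Of 1341 recomputed log2 ratios of named members, 1261 moved by less than the SD of the chow pair (0.48), 80 moved by more, and 0 past 2-fold changed sign. The causes were not tested. Il17rc kept its 10-week diet call in 8 of 10 alternatives (log2 0.23 to 1.76) and its 1-week call in 7 of 9. Il1r1 kept its 10-week call in 7 of 10 and Il12b in 5 of 10. Of the atorvastatin calls Il1r1 was kept in 7 of 9, Ccl6, Ccr6 and Il17rc in 6 of 9 each, and Il34 in 4 of 9. The lowest sizes were 0.49, 0.73, 0.31, -0.10 and -0.04. The alternatives include the mean of both chow arrays, which sets atorvastatin against chow and not the diet, and under which all of these calls were lost. The 0.73 of Ccl6 and the -0.10 of Il17rc come from it. With the diet as reference their lowest sizes were 0.76 (pseudocount) and -0.23 (60th percentile floor). Part of these kept calls was fixed in advance. Il17rc, Il1r1, Ccr6 and Il34 have 1 probe set each, so other probe set rules could not change them. The deposited scaling was nearly the same as the one used, with scale factors from 0.99997 to 1.00002. No paired analysis was possible because each group has 1 array. Signals near the floor limit what can be seen for most members.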

Other observations

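Ccr10 and Il18bp were both below the floor on the 1-week diet array (63.8 and 42.2) and on the 10-week chow array (64.2 and 38.2), and above it on the other 3. Their order above the floor differed. The pair was picked after the values were seen.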
